A study of Homo sapiens with 4 samples.

Results

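The tumour necrosis factor (TNF) ligand and receptor superfamilies were described in Myla cells, a T-cell line from mycosis fungoides, which is a T-cell lymphoma of the skin. Members were all protein-coding rows of the deposited gene table whose symbol starts with TNFSF or TNFRSF, together with TNF, LTA, LTB, CD40LG, CD70, FASLG, CD27, CD40, FAS, LTBR and NGFR. This gave 44 members among 58735 rows, made up of 17 ligands, 26 receptors and the readthrough gene TNFSF12-TNFSF13. The rule is by name and uses no level in these libraries.

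The shFOXM1 cells (2 libraries) received a lentivirus with short hairpin RNA against FOXM1, which encodes a forkhead factor that drives cell cycle genes. The shControl cells (2 libraries) received the same kind of vector with a scrambled hairpin. In both groups the cells were Myla cells labelled WT, 10 uL of virus medium was added, the medium was replaced after 24 h, and RNA was collected after a further 72 h of culture. Whether both shFOXM1 libraries carried the same hairpin, and whether transduced cells were selected, is not stated in the labels. Nothing in the labels shows that the cultures were separate, so the p-values below cover only how much these libraries vary, and that variation may be technical.

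The whole reads behind the values numbered 15017728 and 14680094 in shFOXM1 1 and 2, against 14147084 and 14778639 in shControl 1 and 2. FOXM1 itself was at 9.27 and 5.59 FPKM (read fragments divided by gene length and by sequencing depth) in shFOXM1, against 26.5 and 27.6 FPKM in shControl, which did not pass the test across the table (adjusted p = 0.173 in limma). The shFOXM1 libraries differed from each other more than the controls did, with an SD of the difference over all genes tested of 0.42 in shFOXM1 and 0.26 in shControl on the log2(FPKM + 1) scale. Of 10 T-cell markers, 7 reached 1 FPKM in at least 2 libraries, among them CD3D at 95.1 and 154.4 FPKM in shFOXM1 and 125.3 and 117.8 FPKM in shControl. CD4 had 0 reads in every library, and CD3E and CD5 stayed at or below 0.138 FPKM. Summed T-cell marker FPKM was 556.7 and 396.5 in shFOXM1 and 490.2 and 464.9 in shControl. IL2RA weighed heavily in these sums, at 354.0 and 141.2 FPKM in shFOXM1 and 258.0 and 249.1 FPKM in shControl. It was higher in shFOXM1 1 than in shFOXM1 2, whereas CD3D was lower. Among 10 B-cell and plasma-cell markers 2 reached 1 FPKM in at least 2 libraries, MZB1 and CD79A. The sums were 44.4 and 49.8 FPKM in shFOXM1 and 50.4 and 48.1 FPKM in shControl, mostly MZB1. CD79A differed between the shFOXM1 libraries, at 0.27 and 7.38 FPKM, against 1.73 and 1.44 FPKM in shControl. MS4A1 and JCHAIN were at 0. Of 10 monocyte and macrophage markers only CSF1R reached 1 FPKM in at least 2 libraries. The sums ran from 8.5 to 13.5 FPKM in shFOXM1 and from 9.15 to 13.0 FPKM in shControl. CD163, FCGR3A, S100A8 and S100A9 were at 0. Fibroblast and endothelial markers summed to 48.4 and 20.4 FPKM in shFOXM1 and 27.1 and 25.4 FPKM in shControl with DCN, LUM, CDH5 and KDR at 0, and 2 of 10 reached 1 FPKM. These were COL1A1 and COL3A1, the latter at 45.1 and 15.9 FPKM in shFOXM1 and 24.5 and 22.7 FPKM in shControl. Keratinocyte and epithelial markers, 4 of 10 at that level, summed to 90.3 and 66.8 FPKM in shFOXM1 and 67.9 and 70.2 FPKM in shControl with KRT14, KRT1 and EPCAM at 0. Those at that level were SFN, KRT10, TP63 and CDH1. SFN made up most of the sum, at 69.5 and 40.1 FPKM in shFOXM1 and 44.4 and 48.2 FPKM in shControl. The part of these marker levels in the results was not tested. In a bulk sample, fewer cells of a type and less RNA per cell cannot be told apart.

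Most TNF superfamily ligands are trimeric proteins anchored in the cell membrane, and some are released by proteases. Their receptors carry cysteine-rich repeats outside the cell and fall into functional kinds. Death receptors hold a cytoplasmic death domain that recruits adaptors and caspases, other receptors bind TRAF adaptors and signal to NF-kB and stress kinases, and decoy receptors bind ligand without passing on a full signal. On activated T cells several of these receptors act as costimulators, and TNFRSF8 (CD30) is a surface marker used in cutaneous T-cell lymphoma.

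Of the 44 members, 24 reached at least 1 FPKM in at least 2 libraries and entered the test over 12033 genes. None of them passed the threshold in either direction (limma, Benjamini-Hochberg adjusted p under 0.05), and over all genes tested the share called was 0.0% higher and 0.0% lower. With limma's unadjusted p under 0.05 as the rule, 6 members were higher and 4 lower in shFOXM1, beside 8.82% of all genes higher and 8.99% lower. Voom on the recovered reads called 0 members, with and without library weights. Both shFOXM1 libraries lay above both shControl libraries for 9 of the 24 (37.5%, against 27.3% of all genes tested), and below both for 5 (20.8%, against 25.9%). One of the lower members, TNFRSF13C, reached the tested level only through shControl and so had to differ. Without it, 4 of 23 lay below both (17.4%), and 3 were lower by the unadjusted p. The median log2 fold change of the 24, shFOXM1 minus shControl on the log2(FPKM + 1) scale, was 0.15, beside 0.00 over all genes tested. The lowest adjusted p of a member in limma was 0.173.

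**Figure D1:**
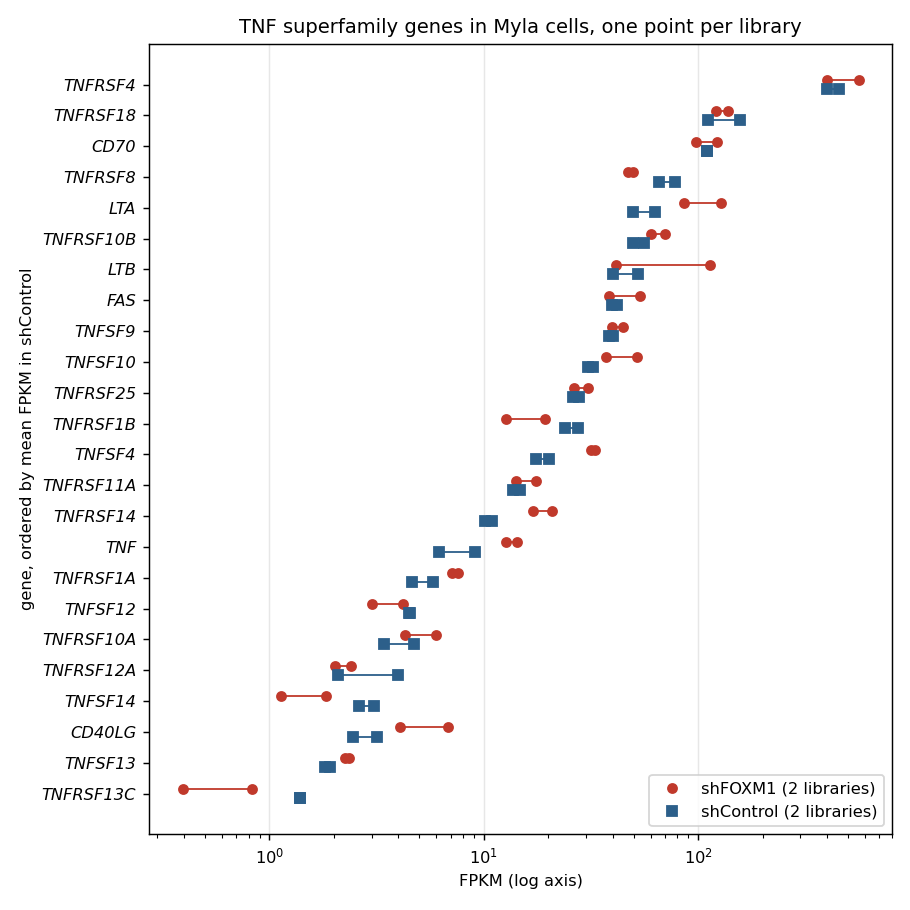
FPKM of the 24 tested members in each library on a log axis, ordered by mean FPKM in shControl, with a line joining the libraries of a group. TNFRSF4 was the highest in every library, between 401.2 and 560.9 FPKM, and TNFRSF13C the lowest on average, between 0.394 and 1.39 FPKM.

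The level of the members in Myla cells spanned from no read to among the most abundant transcripts. TNFRSF4 (OX40), a costimulatory receptor of activated T cells, ranked 50 among all rows of the table by mean FPKM and held 40.0 and 33.2% of the summed member FPKM in shFOXM1, against 37.8 and 37.2% in shControl. After it in shControl came TNFRSF18 and CD70, then TNFRSF8. The next in the shControl order, LTA, TNFRSF10B, LTB, FAS and TNFSF9, did not separate neighbour from neighbour by their 2 shControl values. Neither did TNFRSF25 from TNFRSF1B, nor the run of TNFSF12, TNFRSF10A, TNFRSF12A, TNFSF14 and CD40LG. All other neighbours in the shControl order of the tested members lay apart by their ranges.

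The promoters printed here are of the first 4 leading members, in order of unadjusted p, with a searched motif in a promoter. Leading members were the 8 with the smallest unadjusted p, and none of them passed the threshold. TNFSF4, which had the smallest, is not among the 4 printed. Sequences are from RefSeq on GRCh38.p14, from 250 bases before to 50 bases after a transcription start, and 28 of the 44 members (16 of the 24 tested) were in the table. Capitals mark the motif match, which is the NF-kB consensus in TNFRSF14, LTA and TNFSF14 and the reverse complement of TTTGAA, the cell cycle homology region motif, in TNFRSF8. They are TNFRSF14 at chr1:2556121-2556420 on the plus strand, TNFRSF8 at chr1:12063053-12063352 on the plus strand, LTA at chr6:31572039-31572338 on the plus strand and TNFSF14 at chr19:6670111-6670410 on the minus strand.
TNFRSF14: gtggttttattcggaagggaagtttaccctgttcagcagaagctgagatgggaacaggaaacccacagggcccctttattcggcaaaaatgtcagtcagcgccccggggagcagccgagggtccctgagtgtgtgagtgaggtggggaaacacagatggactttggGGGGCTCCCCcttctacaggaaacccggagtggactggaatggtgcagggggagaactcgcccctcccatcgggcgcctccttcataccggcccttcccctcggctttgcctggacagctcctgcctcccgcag
TNFRSF8: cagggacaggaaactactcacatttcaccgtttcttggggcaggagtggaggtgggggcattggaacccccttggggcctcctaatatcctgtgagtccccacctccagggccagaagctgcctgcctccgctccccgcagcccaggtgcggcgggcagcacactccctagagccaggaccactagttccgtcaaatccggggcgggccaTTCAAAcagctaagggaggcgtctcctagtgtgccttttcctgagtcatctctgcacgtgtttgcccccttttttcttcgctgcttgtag
LTA: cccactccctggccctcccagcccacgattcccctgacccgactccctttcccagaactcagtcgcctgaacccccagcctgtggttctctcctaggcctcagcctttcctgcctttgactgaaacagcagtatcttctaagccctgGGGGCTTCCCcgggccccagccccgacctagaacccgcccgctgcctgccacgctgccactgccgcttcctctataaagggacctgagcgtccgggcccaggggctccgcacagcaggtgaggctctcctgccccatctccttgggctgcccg
TNFSF14: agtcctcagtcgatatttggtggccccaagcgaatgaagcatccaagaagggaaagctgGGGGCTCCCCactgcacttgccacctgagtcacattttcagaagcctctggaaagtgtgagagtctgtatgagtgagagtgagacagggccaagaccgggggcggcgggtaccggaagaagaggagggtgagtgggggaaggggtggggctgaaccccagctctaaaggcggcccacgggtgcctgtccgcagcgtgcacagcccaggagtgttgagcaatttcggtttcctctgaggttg

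Motifs were searched on both strands in the 37 promoters of the 28 matched members and in all 35116 promoters of the table. The NF-kB consensus lay in 10 of the 37 (27.0%), against 5.91% of all promoters, in FAS, LTA, LTB, TNFRSF14, TNFRSF25, TNFRSF9, TNFSF13 and TNFSF14. The forkhead motif TAAACA lay in 4 (10.8%), against 12.3% of all promoters, in CD27, LTB and TNFSF11. TTTGAA lay in 7 (18.9%), against 15.2%, in FAS, TNFRSF8, TNFRSF9, TNFSF11 and TNFSF13B. Several promoters belong to the same gene, and a match is a description of the letters in this window, not a bound site. Members with the NF-kB consensus included both TNFRSF14 and LTA, which lay above shControl, and TNFSF14, which lay below it.

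Summed ligand FPKM was 444.1 and 434.2 in shFOXM1, against 305.4 and 339.6 in shControl, or 439.2 ± 7.0 against 322.5 ± 24.2 (mean ± SD, n = 2 each). LTA and LTB made up much of that difference, and without them the sums were 275.1 and 235.5 FPKM in shFOXM1, against 215.6 and 224.0 FPKM in shControl. Of 11 tested ligands, 6 lay above shControl without overlap (54.5%, against 27.3% of all genes tested), 2 lay below (18.2%, against 25.9%) and 3 overlapped, with a median log2 fold change of 0.47. No ligand passed the threshold.

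TNFSF4 (OX40 ligand), the partner of TNFRSF4, was at 31.8 and 33.2 FPKM in shFOXM1, against 17.5 and 20.1 FPKM in shControl (1854 and 1994 reads, against 980 and 1167). The shFOXM1 libraries were close to each other and well above both controls, at 32.5 ± 1.0 against 18.8 ± 1.8 FPKM (SD, n = 2 each), a ratio of 1.73. Its log2 fold change was 0.76 (SE 0.12; limma adjusted p = 0.173). TNFSF4 lies on chromosome 1 from 173183734 to 173207313 on the minus strand.

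The ligand genes LTA, TNF and LTB sit side by side on chromosome 6, with 1242 bases between LTA and TNF and 2188 between TNF and LTB. LTA (lymphotoxin alpha), a secreted ligand of the TNF receptors, was at 127.6 and 85.5 FPKM in shFOXM1, against 49.7 and 63.1 FPKM in shControl. Both shFOXM1 libraries lay above both controls, but they differed from each other by more than the controls did, and the log2 fold change was 0.89 (SE 0.23; limma adjusted p = 0.196). TNF, the founding inflammatory cytokine of the family, was at 14.3 and 12.7 FPKM in shFOXM1, against 6.18 and 9.06 FPKM in shControl, on 355 and 324 reads against 147 and 224. The groups did not overlap, the ratio of means was 1.77, and the log2 fold change was 0.77 (SE 0.20; limma adjusted p = 0.196).

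LTB (lymphotoxin beta), which anchors lymphotoxin alpha to the membrane, had groups that overlapped. It was at 41.5 and 113.3 FPKM in shFOXM1, against 40.2 and 52.4 FPKM in shControl. One shFOXM1 library was the highest of all 4 and the other lay within the control range. The log2 fold change of 0.57 (SE 0.48; limma adjusted p = 0.571) became -0.14 without shFOXM1 2 and 1.28 without shFOXM1 1.

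CD40LG and TNFSF10 also lay above shControl with more scatter. CD40LG, the CD40 ligand of helper T cells, was at 6.84 and 4.05 FPKM in shFOXM1, against 3.18 and 2.46 FPKM in shControl (184 and 112 reads, against 82 and 66), with a log2 fold change of 0.73 (SE 0.25; limma adjusted p = 0.252). TNFSF10 (TRAIL), which binds the TRAIL death receptors, was at 51.9 and 37.1 FPKM in shFOXM1, against 30.7 and 32.3 FPKM in shControl, with a ratio of 1.41 and a log2 fold change of 0.47 (SE 0.18; limma adjusted p = 0.287). In both genes the groups were apart and shFOXM1 1 was the higher of the shFOXM1 libraries. Without shFOXM1 1 the log2 fold change was 0.41 for CD40LG and 0.23 for TNFSF10.

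TNFSF14 (LIGHT), a ligand of TNFRSF14, lay lower in shFOXM1. It was at 1.84 and 1.13 FPKM in shFOXM1, against 2.61 and 3.09 FPKM in shControl, on 130 and 82 reads against 177 and 218. Both shFOXM1 libraries lay below both controls, the ratio of means was 0.52, and the log2 fold change was -0.65 (SE 0.20; limma adjusted p = 0.23). TNFSF12 (TWEAK) was also lower without overlap, at 4.21 and 3.0 FPKM in shFOXM1, against 4.5 and 4.51 FPKM in shControl, where shFOXM1 1 was only slightly below the controls (log2 fold change -0.27, SE 0.17, and -0.08 without shFOXM1 2; limma adjusted p = 0.45).

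The rest of the tested ligands differed little. TNFSF13 (APRIL) was at 2.26 and 2.36 FPKM in shFOXM1, against 1.92 and 1.82 FPKM in shControl, without overlap. Its exons share 55.5% of their bases with the readthrough gene TNFSF12-TNFSF13, and those of TNFSF12 share 29.4%. The readthrough gene had 2 reads in all. Of its own exon bases, 30.5% also belong to TNFSF12 and 69.5% to TNFSF13. Its count of 2 reads therefore does not show how far it was expressed. CD70, the ligand of CD27, was at 122.1 and 97.5 FPKM in shFOXM1 on either side of 110.5 and 110.4 FPKM in shControl. TNFSF9 (4-1BB ligand) was at 39.8 and 44.4 FPKM in shFOXM1, against 38.4 and 40.2 FPKM in shControl, and the groups overlapped. On chromosome 19, TNFSF9, CD70 and TNFSF14 follow each other with 47254 and 57149 bases between them, and of these only TNFSF14 had groups apart.

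**Figure D2:**
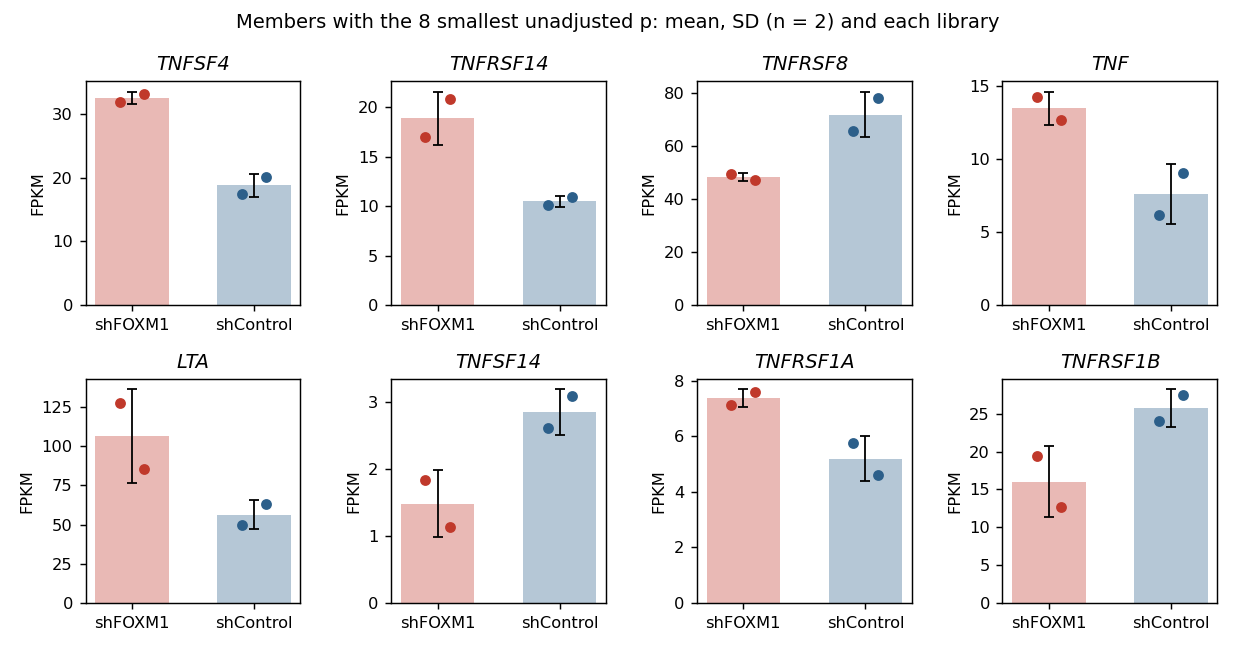
FPKM per library of the 8 members with the smallest unadjusted p, shFOXM1 left of shControl, with points for libraries, bars for group means and error bars for the SD (n = 2). TNFSF4, TNFRSF14, TNF, LTA and TNFRSF1A lie higher in both shFOXM1 libraries, and TNFRSF8, TNFSF14 and TNFRSF1B lower.

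None of the 5 tested death receptors passed the threshold. All 5 had a positive log2 fold change, with a median of 0.27, and 2 lay above shControl without overlap (40.0%, against 27.3% of all genes tested). Without shFOXM1 1 the sign turned for FAS (-0.09) and TNFRSF25 (-0.03). Summed FPKM of the kind was 167.5 and 137.0 in shFOXM1, against 124.7 and 135.2 in shControl. TNFRSF1A, the widely expressed TNF receptor with a death domain, was at 7.14 and 7.6 FPKM in shFOXM1, against 5.77 and 4.62 FPKM in shControl, on 423 and 464 reads against 328 and 273. The shFOXM1 libraries lay close together above both controls, with a ratio of 1.42 and a log2 fold change of 0.44 (SE 0.14; limma adjusted p = 0.24). TNFRSF10B (DR5), the TRAIL death receptor with the higher FPKM, was at 70.1 and 60.3 FPKM in shFOXM1, against 49.7 and 56.1 FPKM in shControl, also without overlap (log2 fold change 0.30, SE 0.13, and 0.19 without shFOXM1 1; limma adjusted p = 0.324).

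The other death receptors overlapped between groups. FAS was at 53.5 and 38.4 FPKM in shFOXM1, against 39.8 and 41.9 FPKM in shControl. TNFRSF10A (DR4) was at 5.98 and 4.31 FPKM in shFOXM1, against 3.41 and 4.75 FPKM in shControl. TNFRSF25 (DR3), a costimulator of T cells, was at 30.8 and 26.3 FPKM in shFOXM1, against 26.0 and 27.8 FPKM in shControl. The lower shFOXM1 library lay below both controls for FAS and between them for TNFRSF10A and TNFRSF25.

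TRAF-binding receptors showed both directions. Of 8 tested, 3 were higher and 5 lower by the sign of the mean difference, 1 lay above without overlap (12.5%, against 27.3% of all genes tested), 3 lay below (37.5%, against 25.9%) and 4 overlapped, and the median log2 fold change was -0.16. Without TNFRSF13C, 2 of 7 lay below (28.6%) and the median was -0.02. Their summed FPKM was 789.1 and 637.3 in shFOXM1, against 629.5 and 750.0 in shControl, a total that TNFRSF4 dominates.

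TNFRSF14 (HVEM), a receptor for LIGHT and lymphotoxin alpha, was at 17.0 and 20.8 FPKM in shFOXM1, against 10.1 and 10.9 FPKM in shControl, on 1564 and 1975 reads against 892 and 999. Both shFOXM1 libraries lay well above the controls, at 18.9 ± 2.72 against 10.5 ± 0.553 FPKM (SD, n = 2 each), a ratio of 1.8. Its log2 fold change was 0.79 (SE 0.14; limma adjusted p = 0.176). The antisense gene TNFRSF14-AS1 overlaps 831 of its 6219 exon bases (13.4%) and was at 7.28 and 8.01 FPKM in shFOXM1, against 6.2 and 6.78 FPKM in shControl. No source used here gives the strand setting of the counts, so reads of the 2 genes in the shared bases cannot be told apart.

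TNFRSF8 (CD30) and TNFRSF1B, the TNF receptor without a death domain, lie 22795 bases apart on chromosome 1 and were both lower in shFOXM1. TNFRSF8 was at 49.5 and 47.2 FPKM in shFOXM1, against 65.8 and 78.0 FPKM in shControl, on 2737 and 2690 reads against 3493 and 4299. Its shFOXM1 libraries were close together below both controls, with a ratio of 0.672 and a log2 fold change of -0.56 (SE 0.13; limma adjusted p = 0.187). TNFRSF1B was at 19.4 and 12.7 FPKM in shFOXM1, against 24.0 and 27.5 FPKM in shControl, again without overlap, with a log2 fold change of -0.67 (SE 0.22; limma adjusted p = 0.241), which was -0.38 without shFOXM1 2.

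TNFRSF13C, the BAFF receptor of B cells, was at 0.394 and 0.832 FPKM in shFOXM1, against 1.39 and 1.39 FPKM in shControl. TNFRSF4 was at 560.9 and 401.2 FPKM in shFOXM1, against 401.2 and 456.4 FPKM in shControl, and TNFRSF18 (GITR), 4634 bases away, at 121.8 and 137.9 FPKM in shFOXM1, between the 110.7 and 156.6 FPKM of shControl. TNFRSF11A (RANK) was at 17.5 and 14.2 FPKM in shFOXM1, against 13.7 and 14.8 FPKM in shControl. TNFRSF12A (Fn14), the TWEAK receptor, was at 2.41 and 2.02 FPKM in shFOXM1, against 2.1 and 4.0 FPKM in shControl. TNFRSF13C, which reached the tested level only through shControl, lay below it without overlap. The other 4 overlapped between groups.

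**Figure D3:**
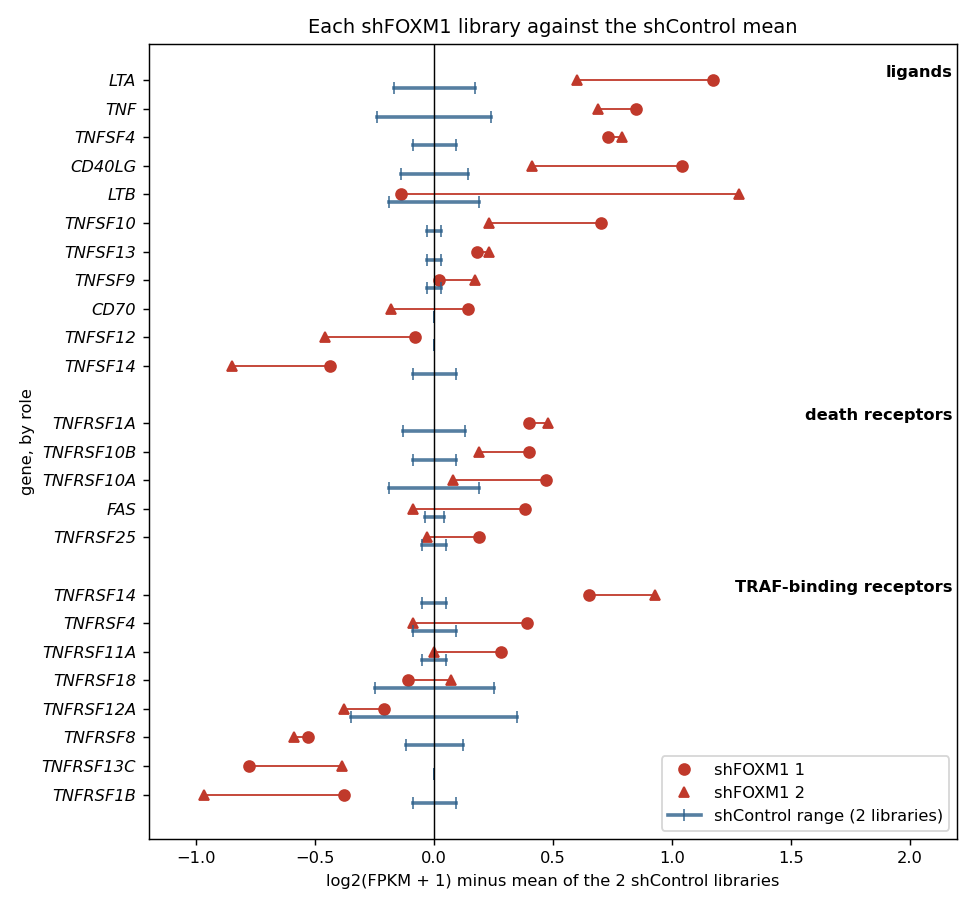
Difference of each shFOXM1 library from the shControl mean, on the log2(FPKM + 1) scale, for the 24 tested members ordered by role, with the range of the 2 shControl libraries as a bar. LTB spans from -0.14 to 1.28, while TNFSF4 and TNFRSF8 have shFOXM1 libraries close together and clear of the bar.

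The members' spread was wider between the shFOXM1 libraries than between the controls. The SD of the difference between the libraries of a group, over the 24 members on the log2(FPKM + 1) scale, was 0.44 in shFOXM1 and 0.23 in shControl, beside 0.42 and 0.26 over all genes tested. The members' median difference from the shControl mean was 0.23 in shFOXM1 1 and 0.07 in shFOXM1 2, beside 0.02 and -0.01 over all genes. The median difference between the 2 controls was 0.14 for the members, which is of the size of the members' median fold change. Without shFOXM1 1, limma called 7 of 24 members (29.2%), near the 25.8% of all genes called in the same fit. They were LTB, TNFRSF14 and TNFSF4 higher and TNFRSF1B, TNFRSF8, TNFSF12 and TNFSF14 lower. Without shFOXM1 2 it called 5 (20.8%, against 5.29% of all genes), all higher, which were CD40LG, LTA, TNFRSF14, TNFSF10 and TNFSF4. In these fits the spread came from the controls alone, and the lone shFOXM1 library was assumed to vary like them. TNFSF4 and TNFRSF14 stand in both lists, but both fits rest on the same 2 controls. The share of all genes called in both was not counted. The log2 fold change of TNFSF4 was 0.79 without shFOXM1 1 and 0.73 without shFOXM1 2. That of TNFRSF14 was 0.93 and 0.65. With all 4 libraries their limma adjusted p was 0.173 and 0.176. Over the fits that left out any 1 library, the adjusted p reached 0.926 for both genes, without shControl 1.

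The 20 members under the tested level included all 4 decoy receptors. TNFRSF11B (osteoprotegerin), which binds RANK ligand and TRAIL, was at 0.406 and 0.441 FPKM in shFOXM1, against 0.424 and 0.408 FPKM in shControl. TNFRSF10C, a TRAIL decoy, was at 0.109 and 0.527 FPKM in shFOXM1, against 0.264 and 0.508 FPKM in shControl. These values rest on 3 and 15 reads, against 7 and 14. The exons of TNFRSF10C share 26.0% of their bases with AC107959.4 on the same strand, which had a mean of 1.67 FPKM. TNFRSF9 (4-1BB), the receptor for TNFSF9, was at 0.192 and 0.27 FPKM in shFOXM1, against 0.167 and 0.246 FPKM in shControl. CD27 had 0 and 2 reads in shFOXM1, against 4 and 5 in shControl, and its exons share 37.0% of their bases with CD27-AS1 on the other strand.

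Reads were absent in every library for 8 members, which were FASLG, TNFSF18, TNFRSF21, LTBR, TNFRSF13B, NGFR, CD40 and TNFRSF6B. A count of 0 allows up to 3 reads per library, which is at most 0.0337 FPKM for LTBR, 0.0837 for CD40 and 0.112 for FASLG, and this covers counting error only. All exon bases of TNFRSF6B also belong to the readthrough gene RTEL1-TNFRSF6B, which was at 0.602 and 0.707 FPKM in shFOXM1 and 0.504 and 0.753 FPKM in shControl. No source used here says how reads in shared bases were assigned. The other 8 untested members, TNFSF8, TNFRSF10D, TNFSF11, TNFSF12-TNFSF13, TNFSF15, TNFRSF19, TNFRSF17 and TNFSF13B, had at most 4 reads in any library.

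Set side by side as 32 known ligand and receptor pairs, 10 had both transcripts at 1 FPKM or more in at least 2 libraries, 11 had only the ligand, 6 only the receptor and 5 neither. TNFSF4 with TNFRSF4, TNFSF10 with TNFRSF10A and TNFRSF10B, and TNF and LTA with TNFRSF1A and TNFRSF1B were among those with both. LTB, CD40LG, CD70 and TNFSF9 had their ligand transcript alone, as LTBR, CD40, CD27 and TNFRSF9 were under the tested level. FAS, TNFRSF8, TNFRSF18, TNFRSF25, TNFRSF11A and TNFRSF13C had only the receptor transcript, and TNFRSF13C reached 1 FPKM only in shControl. Pairs with TNFRSF6B rest on a gene whose exon bases all belong to RTEL1-TNFRSF6B as well. Within the TNF pairs, TNF was higher in both shFOXM1 libraries, TNFRSF1A was higher and TNFRSF1B was lower, so that mean TNFRSF1B FPKM was 16.0 beside 7.37 for TNFRSF1A in shFOXM1 and 25.7 beside 5.2 in shControl. TNFRSF14 and TNFSF14 lay on opposite sides of their controls.

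Partner genes of the pathway, called downstream genes for short, were taken from 6 lists with 61 genes, 55 of them tested. The lists also hold proteases that release ligands and receptors, and superfamily genes with other names, which are not downstream of the receptors. None passed the threshold (limma), and voom on the recovered reads called 0. With the unadjusted p under 0.05 as the rule, 14 of the 55 were higher and 1 lower, beside 8.82% and 8.99% of all genes. Groups did not overlap for 23 above (41.8%, against 27.3% of all genes) and 7 below (12.7%, against 25.9%), and the median log2 fold change was 0.09. The lists were chosen with earlier results of these data known. Their shares, here and list by list below, are therefore a description and no independent support.

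The list of adaptors and ubiquitin ligases also holds deubiquitinases that act on the receptor complexes. Of its 17 tested genes none passed the threshold, 11 lay above shControl without overlap (64.7%, against 27.3% of all genes tested), 1 below (5.88%, against 25.9%) and 5 overlapped, with a median log2 fold change of 0.22. TNFAIP3 (A20), a ubiquitin-editing enzyme that limits NF-kB signalling, was at 19.8 and 18.6 FPKM in shFOXM1, against 13.5 and 12.9 FPKM in shControl (log2 fold change 0.51, SE 0.11; limma adjusted p = 0.183). TRAF6, a ubiquitin ligase that joins receptors to NF-kB signalling, was at 4.37 and 5.17 FPKM in shFOXM1, against 2.79 and 2.53 FPKM in shControl (0.65, SE 0.14; limma adjusted p = 0.184). BIRC2 (cIAP1), a ubiquitin ligase of the TNF receptor complex, was at 19.7 and 14.2 FPKM in shFOXM1, against 10.2 and 10.1 FPKM in shControl, and TANK, which binds TRAF proteins, at 22.6 and 22.9 FPKM in shFOXM1, against 16.7 and 15.4 FPKM in shControl. For each of these 4 both shFOXM1 libraries lay above both controls.

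The kinases of the pathway showed no common direction, with 6 of 12 higher and 6 lower by sign and a median log2 fold change of -0.02. TAB1, a partner of the kinase TAK1, was at 13.4 and 12.7 FPKM in shFOXM1, against 9.88 and 10.5 FPKM in shControl. TAB3 was at 4.73 and 2.68 FPKM in shFOXM1, against 5.13 and 5.41 FPKM in shControl, MAP2K7 at 7.55 and 9.4 FPKM in shFOXM1, against 7.23 and 7.27 FPKM in shControl, and MAPK8 (JNK1) at 6.07 and 3.63 FPKM in shFOXM1, against 5.88 and 6.04 FPKM in shControl. The first 3 did not overlap between groups and MAPK8 did. All 4 were named for having the smallest unadjusted p of the list, which favours groups that lie apart.

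In the death branch, 3 of 6 tested genes were higher and 3 lower by sign, with a median of 0.01. Without overlap, 2 lay above (33.3%, against 27.3% of all genes tested) and 1 below (16.7%, against 25.9%). CFLAR (c-FLIP), an inhibitor of caspase-8, was at 22.8 and 18.4 FPKM in shFOXM1, against 14.4 and 15.5 FPKM in shControl (log2 fold change 0.43, SE 0.14; limma adjusted p = 0.241). MLKL, the effector of necroptosis, was at 2.78 and 2.51 FPKM in shFOXM1, against 3.33 and 3.97 FPKM in shControl, below the controls. RIPK3, a kinase of necroptosis, had 1 read in all libraries together.

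The proteases and helper proteins that release TNF family ligands and receptors from the membrane, ADAM10, ADAM17, RHBDF1 and RHBDF2, all had a negative log2 fold change, between -0.20 and -0.05. Only ADAM10 had groups apart, at 6.44 and 4.86 FPKM in shFOXM1, against 6.51 and 6.65 FPKM in shControl. Among the superfamily genes with other names, RELT was at 5.0 and 3.84 FPKM in shFOXM1, against 4.2 and 4.8 FPKM in shControl, EDAR and EDA2R had 0 reads, and EDA was near 0.

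The list of NF-kB genes downstream of TNF receptors also holds subunits and inhibitors of NF-kB. By sign, 9 were higher and 6 lower. Of 15 tested, 7 lay above without overlap (46.7%, against 27.3% of all genes tested), 2 below (13.3%, against 25.9%) and 6 overlapped, with a median log2 fold change of 0.16. NFKB2 (p100), a precursor in the alternative NF-kB branch, was at 234.9 and 310.9 FPKM in shFOXM1, against 161.6 and 172.5 FPKM in shControl (log2 fold change 0.69, SE 0.16; limma adjusted p = 0.189). ICAM1, a cell adhesion molecule, was at 48.0 and 39.3 FPKM in shFOXM1, against 25 and 31.3 FPKM in shControl, and NFKBIE, an NF-kB inhibitor, at 23.4 and 34.3 FPKM in shFOXM1, against 18.9 and 18.0 FPKM in shControl, with a log2 fold change of 0.59, or 0.33 without shFOXM1 2. TNFAIP2 had the largest difference of the list and the opposite sign, at 3.65 and 7.58 FPKM in shFOXM1, against 14.0 and 14.1 FPKM in shControl (log2 fold change -1.25, SE 0.30, and -0.81 without shFOXM1 1; limma adjusted p = 0.191).

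**Figure D4:**
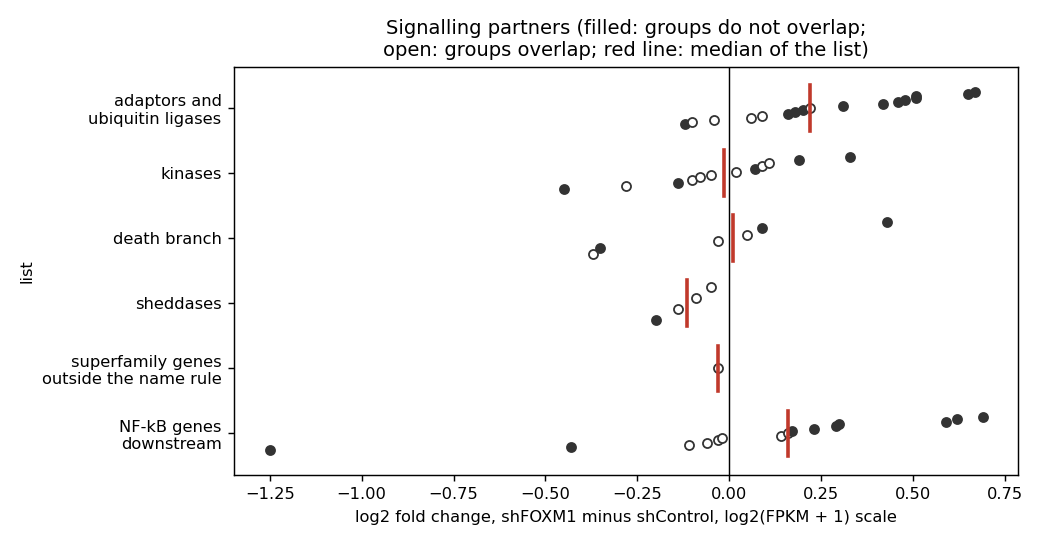
Log2 fold change, shFOXM1 minus shControl on the log2(FPKM + 1) scale, of the 55 tested partner genes in their 6 lists, with a red line at each list's median. The adaptors and ubiquitin ligases have their median at 0.22 and the kinases at -0.02, and TNFAIP2 stands at -1.25.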

How the data were processed

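Messenger RNA of 4 Myla libraries was sequenced, 2 shFOXM1 and 2 shControl. The authors deposited 1 table of FPKM values with gene lengths, per the file headers. The aligner, the counter and the strand setting were not given in the sources used here. Mouse builds GRCm38 and mm10 stand in the submitters' processing notes, but identifiers and positions of all 58735 genes equal those of human GENCODE release 29 on GRCh38, and coordinates of genes are those of the table. Column names sh0 were taken as shControl and sh1 and sh2 as shFOXM1, and 0 columns of other samples were present.

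Values turned into reads with the gene lengths came out whole for 100.0% within 0.01 read, and for a 1 kb gene a single read equals 0.0656 to 0.0705 FPKM. The test was limma 3.58.1 (R 4.3.3) on log2(FPKM + 1), two-sided with a variance trend, over the 12033 genes at 1 FPKM or more in 2 or more libraries, and calls had an adjusted p under 0.05 by Benjamini-Hochberg. This scale understates the change of low genes. The smallest two-sided exact permutation p of 2 against 2 is 0.333, so single values carry none.

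Members, roles, pairs, downstream lists and markers were chosen with earlier results of these data known. SOD2, with 2 rows of its name in the table, was left out of the lists. Text names FOXM1, each tested member, and of each downstream list up to 4 genes with the smallest unadjusted p, of which some are not reported here. TNFRSF14-AS1, RTEL1-TNFRSF6B, AC107959.4, RIPK3, EDA, EDAR and EDA2R were named after their values were seen. Counts without TNFRSF13C and ligand sums without LTA and LTB were likewise added after seeing the data. Alternatives were other pseudocounts, filters, scalings and priors, a replicate block, voom on recovered reads, and each library left out.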

Additional observations from a re-analysis of the deposited data

How the results depend on the processing

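No member and no downstream gene passed the threshold under any alternative other than leaving out an shFOXM1 library. Voom with library weights called 20 genes higher and 9 lower over all genes, and 0 members. FOXM1 was among the lower genes (log2 fold change -1.89; adjusted p = 0.0202 in voom with library weights). Leaving out 1 library at a time gave from 0 to 1360 genes higher and from 0 to 1744 lower over all genes, from 0 to 5 members higher and 0 to 4 lower, and from 0 to 11 downstream genes higher and 0 to 7 lower. Every count above 0 came without an shFOXM1 library, and the cause was not tested beyond that fit's own construction, in which the spread comes from the controls alone.

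Of 377 member values over the alternatives, 356 had the same sign and the same call, 12 became calls, and 9 changed sign. For FOXM1 and the downstream genes named in the text the numbers were 291, 17 and 7 of 315. Sign changes came only when a library was left out. The log2 fold change then ranged from -0.14 to 1.28 for LTB, from -0.64 to 0.05 for TNFRSF12A, from -0.00197 to 0.28 for TNFRSF11A, from -0.09 to 0.38 for FAS, from -0.09 to 0.39 for TNFRSF4, from -0.03 to 0.19 for TNFRSF25, from -0.18 to 0.14 for CD70 and from -0.27 to 0.22 for TNFRSF18. For downstream genes it ranged from -0.59 to 0.02 for MAPK8, from -0.35 to 0.08 for RHBDF1, from -0.24 to 0.05 for RHBDF2, from -0.2 to 0.1 for ADAM17 and from -0.18 to 0.13 for RELT. The members' median fold change stayed between 0.04, with no filter, and 0.23, without shFOXM1 2.

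The replicate block called 0 genes, 0 members and 0 downstream genes, and same-numbered libraries had a correlation of deviations of 0.0421 over 12033 genes in 2 pairs, so the numbers were not shown to pair them. No filter meant all genes with at least 1 read. The count-model alternative was planned only for a table deposited as counts and was not run, and voom on the recovered reads stood in its place. Low members rest on few reads, and with 2 libraries a group the difference of TNFSF4 or TNFRSF14 did not reach the threshold.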
